A study of Mus musculus with 3 samples.

Results

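The Sox genes encode transcription factors that share an HMG box, the domain with which they bind and bend DNA, and 9 of them are described here in PDL-L2, immortalised cells of the mouse periodontal ligament. They are Sox2, Sox4, Sox5, Sox6, Sox8, Sox9, Sox10, Sox11 and Sox12. The members were taken as all probe sets for which the platform annotation gives 1 of these symbols and no other gene, which yielded 36 probe sets of 45037 compared and 9 genes of 18193. The 3 conditions were siENG with BMP-2 (an siRNA pool against endoglin, then recombinant human BMP-2 at 250 ng/ml), siCont with BMP-2 (a control siRNA pool, then the same dose) and siCont with vehicle. BMP-2 or vehicle was added 48 h after transfection and left for 12 h. The medium held ascorbic acid and β-glycerophosphate, and endoglin knockdown without BMP-2 is not analysed here. Each condition was read on 1 array of total RNA, so differences stand without a replicate check, a test or a p-value. PDL-L2 is a line grown in culture, endoglin was lowered by a transient siRNA pool, and fewer cells that hold a transcript cannot be told apart from less of it per cell.

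Sox proteins are sorted into groups by the sequence of the HMG box. Sox2, of group B1, keeps stem cells and neural progenitors undifferentiated. Sox4, Sox11 and Sox12 form group C, which acts in progenitors of neurons and of mesenchyme in the mouse embryo. Sox5 and Sox6, of group D, lack an activation domain of their own and act beside Sox9 in cartilage. Sox8, Sox9 and Sox10 form group E, in which Sox9 directs chondrocyte formation and Sox10 maintains neural crest cells and glia. The periodontal ligament is itself derived from the neural crest, and BMPs are known inducers of cartilage and bone.

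Endoglin (Eng), the target of the siRNA, had signals of 108 with siENG and BMP-2, 298.5 with siCont and BMP-2 and 286 with siCont and vehicle in its brighter probe set, lowest on the array labelled siENG. A signal limit was set at 23, the median over the arrays, and probe sets past it were brighter on that array, with a median log2 ratio of 0.21 over siCont BMP-2 and of 0.22 over vehicle. Log2 ratios of the siENG array are therefore also given after subtraction of that median, and such values are called relative. For siCont BMP-2 over vehicle the median was 0.01. Gapdh control probe sets at the 3' end over those at the 5' end gave a signal ratio of 0.804 with siENG and BMP-2, 0.774 with siCont and BMP-2 and 0.758 with vehicle. Probe sets of Bacillus genes, whose targets mouse RNA does not hold, reached at most 13.1, and signals up to that value are called within the control range. As a guide to precision, the robust SD of log2 ratios was taken over probe sets of similar signal. Of 11 markers of periodontal ligament fibroblasts, 8 were above the control range with siENG and BMP-2, 9 with siCont and BMP-2 and 8 with vehicle, and Thy1 and Lum were within it on all 3 arrays. Of 4 leukocyte markers, 3 were above it with siENG and BMP-2, 3 with siCont and BMP-2 and 2 with vehicle. Their summed signal was 209.7 with siENG and BMP-2, 108 with siCont and BMP-2 and 127 with vehicle, and Ptprc was within the control range on all arrays. The part of these markers in the values below was not tested.

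Sox2, Sox4, Sox11 and Sox10 were the members with a probe set above the control range on every array. Of the 36 probe sets, 10 were above it on all 3 arrays, 11 on some and 15 on none. The 10 were the probe set of Sox2, 6 of the 8 of Sox4, 2 of the 6 of Sox11 and 1 of the 3 of Sox10. Sox5, Sox6, Sox8 and Sox12 exceeded it only on some arrays, and Sox9 on none. The levels of different genes are not ranked, since each probe set has its own brightness.

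**Figure D1:**
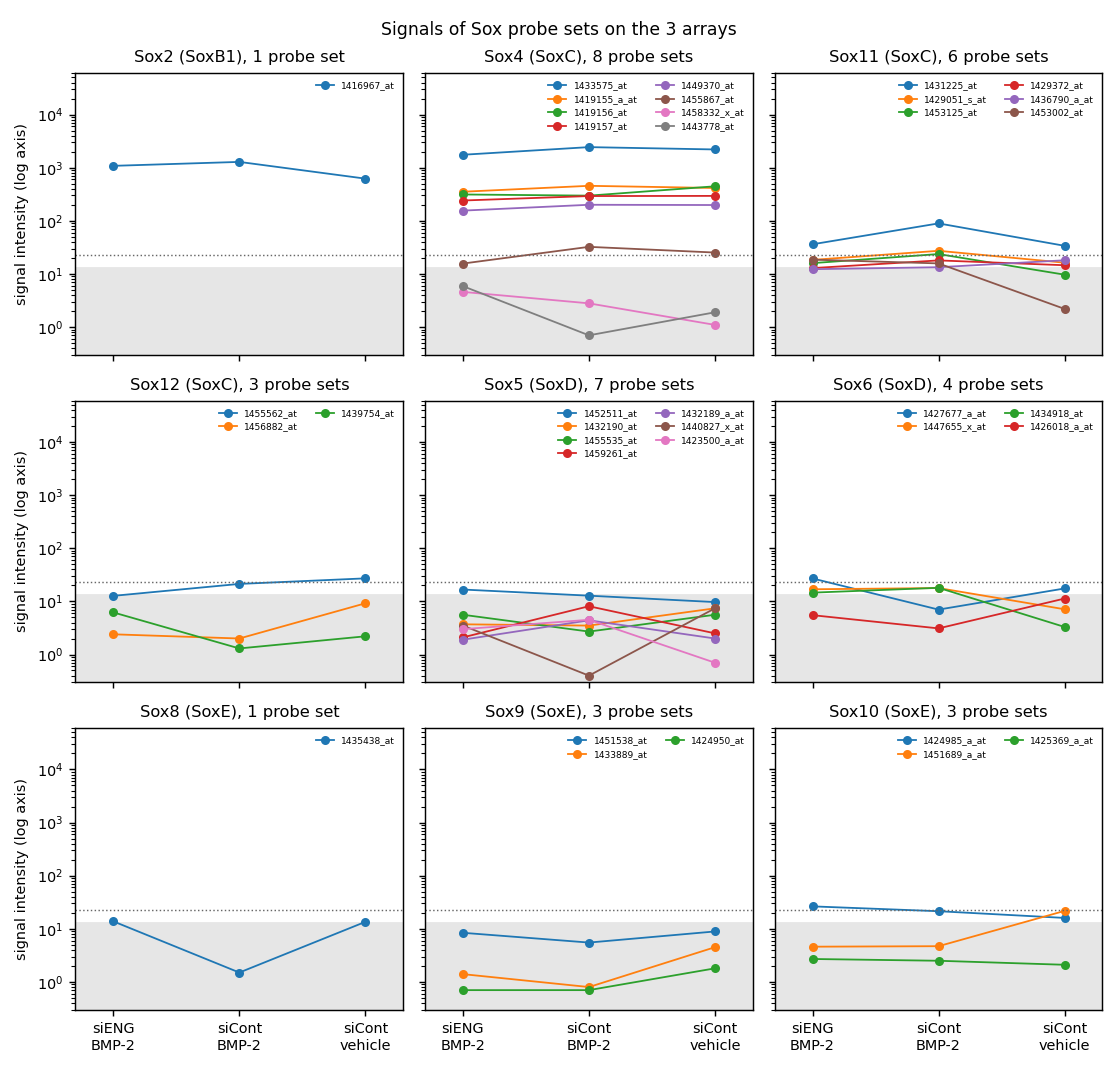
Signal intensity (log axis) of each of the 36 probe sets on the 3 arrays, with 1 panel per gene and 1 line per probe set. The grey area is the control range (up to 13.1) and the dotted line the signal limit of 23. Sox2 and the brightest probe set of Sox11 peak with siCont and BMP-2, 5 of the 6 Sox4 probe sets above the grey area are lowest with siENG, and all 3 of Sox9 stay in the grey area.

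The promoters of Sox2, Sox11 and Sox4 are shown because the first pair had the highest ratios with BMP-2 among the members past the signal limit and Sox4, the other bright member, did not. Each sequence runs from 250 bases before to 50 bases after the start of transcription as RefSeq gives it on GRCm38.p6. Capitals mark the CCAAT box, the motif GCGTG and the Smad-binding element CAGAC, each on either strand. The windows are chr3:34649745-34650044 on the plus strand for Sox2, chr12:27342669-27342968 on the minus strand for Sox11 and chr13:28953650-28953949 on the minus strand for Sox4.
Sox2: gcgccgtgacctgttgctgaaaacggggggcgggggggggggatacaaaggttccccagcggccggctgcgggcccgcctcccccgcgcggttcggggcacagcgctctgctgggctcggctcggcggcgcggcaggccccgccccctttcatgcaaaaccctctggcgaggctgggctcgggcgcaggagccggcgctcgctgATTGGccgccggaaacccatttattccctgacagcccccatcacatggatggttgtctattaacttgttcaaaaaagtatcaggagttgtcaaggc
Sox11: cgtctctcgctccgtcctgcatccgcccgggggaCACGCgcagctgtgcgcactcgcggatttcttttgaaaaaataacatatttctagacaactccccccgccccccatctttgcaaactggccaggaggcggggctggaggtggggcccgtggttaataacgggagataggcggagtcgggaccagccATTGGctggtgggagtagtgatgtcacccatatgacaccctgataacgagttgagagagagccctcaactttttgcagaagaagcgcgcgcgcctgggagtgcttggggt
Sox4: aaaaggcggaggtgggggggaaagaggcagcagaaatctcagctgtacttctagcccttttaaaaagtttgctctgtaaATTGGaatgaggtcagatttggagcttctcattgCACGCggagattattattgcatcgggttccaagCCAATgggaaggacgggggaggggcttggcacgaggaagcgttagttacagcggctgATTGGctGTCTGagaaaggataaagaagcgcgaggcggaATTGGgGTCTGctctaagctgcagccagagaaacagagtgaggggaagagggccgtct
Promoters were found in the RefSeq table for 7 of the 9 members, and motifs were searched on both strands. GGCGCC, a GC-rich element bound by Smads that BMP activates, was in none of these 3 windows, against 11.9% of all 32851 promoters of the same length. CAGAC occurred 2 times in Sox4 and not in Sox2 or Sox11, and was in 49.6% of all promoters. GCGTG, a core of the hypoxia response element, had 1 match in Sox11 and 1 in Sox4 (32.4% of all promoters hold it), and ACGTG had none (19.6%). CCAAT, which was added after the sequences were seen, had 1 match in Sox2, 1 in Sox11 and 4 in Sox4, and was in 37.4% of all promoters. Read on the minus strand of the window, a CCAAT match began 46 bases before the start in Sox2, 60 in Sox11 and 171, 47 and 8 in Sox4, whose remaining match began 104 bases before the start on the plus strand. A match is a string of letters and shows no binding.

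Comparing siCont BMP-2 with siCont vehicle asks which Sox genes differ 12 h after BMP-2. Represented by its brightest probe set, a gene was kept where the higher signal reached the limit of 23, which left Sox2, Sox4, Sox11 and Sox12 of the 9 members. Of these, Sox2 and Sox11 had a ratio of 2 or more and none had 0.5 or less. Among all 10810 genes kept, 1.8% reached a ratio of 2 and 1.57% one of 0.5 or less (1.78% and 1.59% by relative ratios). With the limit at 152, the 75th percentile, Sox2 was the only such member, and 0.505% of 6727 genes lay at 2 or more and 0.0743% at 0.5 or less. With the second brightest probe set Sox11 had a log2 ratio of 0.74 and fell short of a ratio of 2. Sox2 has only 1 probe set, which that rule keeps, so its value could not change there. The median log2 ratio of the 4 members was 0.60, beside 0.01 over all genes kept. A member can pass the limit through the array on which it is bright, and the study chose Sox2 and Sox11 on these same arrays, so neither the count nor the direction is independent evidence.

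Sox2 was brighter on both arrays given BMP-2 than on the vehicle array. Its only probe set had signals of 1084 with siENG and BMP-2, 1286 with siCont and BMP-2 and 623 with siCont and vehicle. The vehicle array was the lowest, and the siENG array lay between the others and nearer to siCont BMP-2. The log2 ratio of siCont BMP-2 over vehicle was 1.05, a ratio of 2.06 (robust SD 0.15). This ratio is close to 2, and it ran from 2.02 to 2.09 over the signals as deposited and 4 other scalings of the arrays. For siENG over siCont, both with BMP-2, the log2 ratio was -0.25 (relative -0.46, robust SD 0.22). For siENG with BMP-2 over vehicle it was 0.80 (relative 0.58, robust SD 0.28). Sox2 on the siENG array was thus below the siCont BMP-2 array and above vehicle, in each case by more than the robust SD.

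Sox11, a group C factor of neuronal and mesenchymal progenitors, was highest on the siCont BMP-2 array, while its siENG signal was near that of vehicle. In its brightest probe set (1431225_at) the signals were 36.2 with siENG and BMP-2, 89.5 with siCont and BMP-2 and 33.9 with siCont and vehicle. The log2 ratio was 1.4 for siCont BMP-2 over vehicle (robust SD 0.34) and -1.31 for siENG over siCont with BMP-2 (relative -1.52, robust SD 0.42). For siENG with BMP-2 over vehicle it was 0.09 (relative -0.13), within the robust SD of 0.48. Both main ratios contain the same siCont BMP-2 reading of 89.5, so a high reading there would raise the first and lower the other.
The other 5 probe sets of Sox11 were dimmer and differed among themselves. The next brightest, 1429051_s_at, whose suffix marks probes shared by several transcripts, had signals of 18.4 with siENG and BMP-2, 27.3 with siCont and BMP-2 and 16.3 with vehicle, the same order of siCont BMP-2 over the other arrays. The probe set 1453125_at had 16.0 with siENG and BMP-2, 23.7 with siCont and BMP-2 and 9.7 with vehicle, where the last value lies in the control range and makes the siCont BMP-2 signal at least 1.81-fold higher. These 3 probe sets each peaked with siCont and BMP-2.
A further probe set, 1429372_at, was highest there too with 12.9, 18.0 and 14.6 in the order siENG with BMP-2, siCont with BMP-2 and vehicle. Its log2 ratios of 0.30 for siCont BMP-2 over vehicle (robust SD 0.60) and -0.48 for siENG over siCont (robust SD 0.76) lay within the robust SD. The remaining pair did not peak with siCont and BMP-2. The probe set 1436790_a_at had 12.3 with siENG and BMP-2, 13.4 with siCont and BMP-2 and 18.1 with vehicle, its highest signal. The probe set 1453002_at had 18.6 with siENG and BMP-2, 15.8 with siCont and BMP-2 and 2.2 with vehicle, high on both arrays given BMP-2. Over the 6 probe sets, 5 were higher with siCont BMP-2 than with vehicle, and 4 of the 6 differed by more than the robust SD. The vehicle signal of 1453002_at lies in the control range, so its siCont BMP-2 signal is given as at least 1.21-fold higher. Against siCont BMP-2, 5 were lower with siENG as deposited, with log2 ratios from -1.31 to 0.24. Only 2 of the 6 differed there by more than the robust SD (3 by relative values).

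Sox4, which the mouse embryo needs in heart and lymphocyte development, showed little difference with BMP-2 in most probe sets and lower signals with siENG. Its brightest probe set (1433575_at) had signals of 1753 with siENG and BMP-2, 2440 with siCont and BMP-2 and 2206 with siCont and vehicle. The siENG array was the lowest. The log2 ratio of siCont BMP-2 over vehicle was 0.15 (robust SD 0.11), that of siENG over siCont with BMP-2 -0.48 (relative -0.69, robust SD 0.22) and that of siENG with BMP-2 over vehicle -0.33 (relative -0.55, robust SD 0.22).
The next, 1419155_a_at, had 353 with siENG and BMP-2, 456 with siCont and BMP-2 and 415 with vehicle. The probe set 1419157_at had 241 with siENG and BMP-2, 293 with siCont and BMP-2 and 295 with vehicle, and 1449370_at had 156, 200.6 and 198 in the same order. All 3 were lowest with siENG and nearly level between the siCont arrays.
The probe set 1419156_at stood apart, with 314 with siENG and BMP-2, 298 with siCont and BMP-2 and 447 with vehicle. Its log2 ratio of siCont BMP-2 over vehicle was -0.58 (robust SD 0.17), while the other 5 probe sets above the control range on all arrays ran from -0.01 to 0.36. The dim 1455867_at had 15.7 with siENG and BMP-2, 32.4 with siCont and BMP-2 and 25.3 with vehicle.
Against vehicle, the siENG array was lower in all 6 of these probe sets, with log2 ratios from -0.69 to -0.23 (relative -0.91 to -0.46). Against siCont BMP-2 it was lower in 5 of the 6 as deposited and in 6 of 6 by relative values, from -1.26 to -0.14. Only the dim 1455867_at reached a ratio of 0.5 or less. By more than the robust SD, 3 of the 6 differed from vehicle as deposited and 6 by relative values. From siCont BMP-2, 4 did as deposited and 5 by relative values. The 6 probe sets read the same RNA and are not replicates. The last pair of Sox4 probe sets had signals of 0.7 to 5.9, within the control range on all arrays.

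**Figure D2:**
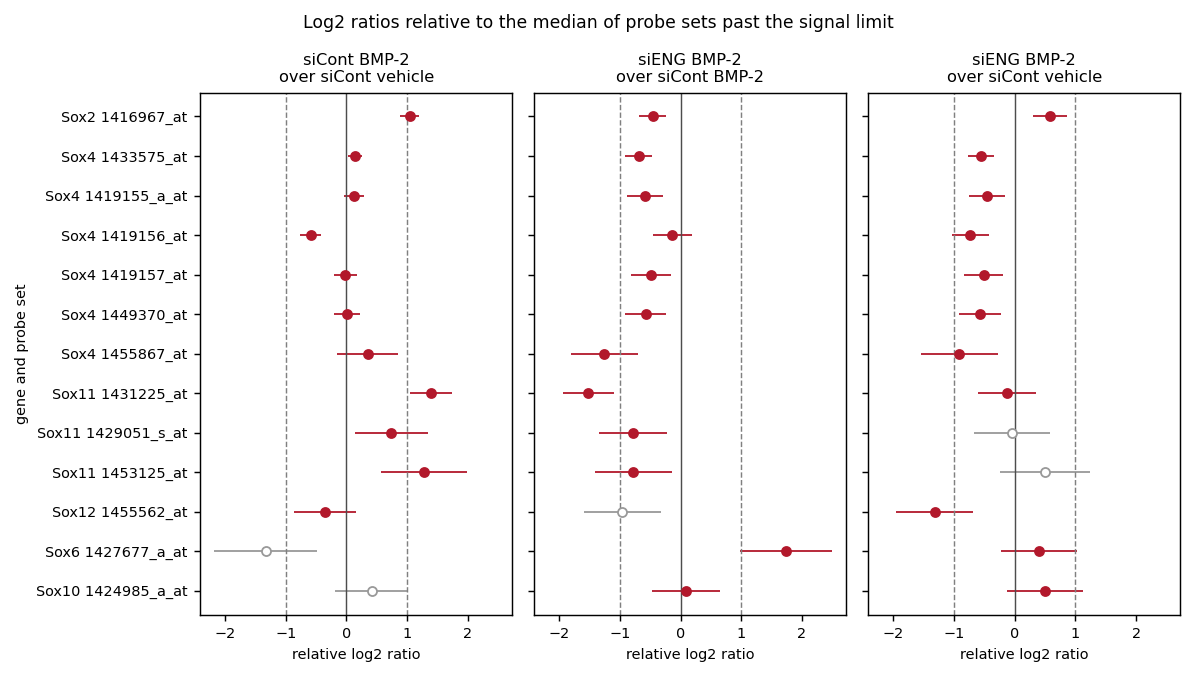
Log2 ratios, less the median over probe sets above 23, of the 13 Sox probe sets past that limit in at least 1 comparison. Filled red points are past the limit in that comparison and open grey points are not, bars show 1 robust SD of probe sets of similar signal (not an error over replicates) and dashed lines mark ratios of 2 and 0.5. Sox2 and Sox11 lie to the right for siCont BMP-2 over vehicle, and the 6 Sox4 probe sets lie left of 0 in both comparisons of the siENG array.

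Sox12, the remaining group C gene, was read near the control range. Its brightest probe set had signals of 12.7 with siENG and BMP-2, 21.3 with siCont and BMP-2 and 27.1 with siCont and vehicle, so the siENG array was the lowest and the vehicle array the highest. Since 12.7 lies in the control range, siENG with BMP-2 is given as at least 2.07-fold lower than vehicle. Between siCont BMP-2 and vehicle its log2 ratio of -0.35 was smaller than the robust SD of 0.51. The other 2 probe sets had signals of 1.3 to 9.2, within the control range on all arrays.

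Comparing siENG with siCont, both given BMP-2, asks which Sox genes differ with endoglin knockdown. The members kept were Sox2, Sox4, Sox11, Sox6 and Sox10 of the 9. Of these 5, Sox6 had a ratio of 2 or more and Sox11 a ratio of 0.5 or less, and the same held for relative ratios. Neither call was made with the mean over probe sets or with the second brightest probe set. For these rules Sox11 had log2 ratios of -0.47 and -0.57. The call of Sox6 was also lost with signals floored at the median. Sox6 passed the limit only through the siENG array (27.0), and its siCont BMP-2 signal of 7.0 lay in the control range. With signals floored at the highest Bacillus control, the log2 ratio of Sox6 as deposited was 1.04. Subtraction of the median of 0.21 takes that value below a ratio of 2. The relative call of Sox6 therefore rests on a signal within the control range. The background over 10854 genes was 4.04% at or above 2 and 1.66% at or below 0.5 as deposited, and 2.32% and 2.7% by relative ratios. With the limit at 152 no member was at either ratio, where 1.75% and 0.28% of 7133 genes were. The median log2 ratio of the 5 members was -0.25, beside 0.24 over all genes kept. For siENG with BMP-2 over vehicle, 6 members were kept, none had a ratio of 2 or more and Sox12 had 0.5 or less, where 3.99% and 1.73% of 10847 genes did (2.25% and 2.85% by relative ratios). Sox12 passed the limit there only through the vehicle array (27.1), and its siENG signal of 12.7 lay in the control range. The call of Sox12 was lost with signals floored at the median, with the mean over probe sets and with the second brightest probe set. With the limit at 152 no member did, where 2.21% and 0.392% of 7138 genes did. The siCont BMP-2 array is shared with the comparison of BMP-2 and vehicle.

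The group D genes Sox5 and Sox6, partners of Sox9 in cartilage, were mostly within the control range. The brightest probe set of Sox6 (1427677_a_at) had signals of 27.0 with siENG and BMP-2, 7.0 with siCont and BMP-2 and 17.5 with siCont and vehicle, lowest with siCont and BMP-2. As deposited, the siENG signal was thus at least 2.06-fold higher than the siCont BMP-2 signal. A different order was read in a further pair of Sox6 probe sets. The probe set 1434918_at had 14.6 with siENG and BMP-2, 18.0 with siCont and BMP-2 and 3.3 with vehicle. The other, 1447655_x_at, whose probes may match other transcripts, had 16.9, 17.8 and 7.1 in the same order. Both were lowest with vehicle, and the siCont BMP-2 signals were at least 1.37-fold and at least 1.36-fold higher. The fourth had 3.1 to 11.3, within the control range on all arrays, where no order can be drawn. Of the 7 probe sets of Sox5, 6 were within the control range on all arrays, and 1452511_at had 16.7 with siENG and BMP-2, 12.8 with siCont and BMP-2 and 9.7 with vehicle.

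Of the group E genes, Sox9, the regulator of chondrocyte formation, was not read above the control range on any array. Its brightest probe set had signals of 8.4 with siENG and BMP-2, 5.5 with siCont and BMP-2 and 8.9 with vehicle, and the other 2 had 0.7 to 4.5. No order can be drawn from these values, and a low signal does not show that the transcript was absent. Sox8 had 13.8 with siENG and BMP-2, 1.5 with siCont and BMP-2 and 13.5 with vehicle, at the edge of the control range. Sox10, known from neural crest and glia, had 26.4 with siENG and BMP-2, 21.4 with siCont and BMP-2 and 16.0 with vehicle in the probe set 1424985_a_at, with log2 ratios of 0.30 for siENG over siCont with BMP-2 (relative 0.09, robust SD 0.56) and 0.42 for siCont BMP-2 over vehicle (robust SD 0.60). Both lie within the robust SD. Another probe set of Sox10, 1451689_a_at, had 4.6 with siENG and BMP-2, 4.7 with siCont and BMP-2 and 21.7 with vehicle, above the control range only with vehicle, and the last had 2.1 to 2.7.

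The other members of the family were mostly within the control range. Of 11 further Sox genes with 17 probe sets, 1 probe set was above it on all arrays, 4 on some and 12 on none. Sox21, a repressor of group B, had 62.8 with siENG and BMP-2, 59.6 with siCont and BMP-2 and 65.1 with vehicle, a near-level reading. Sry, the testis-determining gene, had 8.3 with siENG and BMP-2, 25.9 with siCont and BMP-2 and 21.4 with vehicle in the probe set 1450579_x_at, whose probes may match other transcripts, and was within the control range in its other probe set.

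Cartilage genes known as targets of Sox9, Sox5 and Sox6 were listed beside the factors. Of 20 matched to a gene, 7 were kept for siCont BMP-2 over vehicle. Of these, Col2a1 and Fmod had a ratio of at least 2 and none was at 0.5 or less, where 1.8% and 1.57% of all genes kept were. Col2a1 passed the limit here only through the array given BMP-2, and the study chose Fmod on these same arrays. Neither the count nor the direction is therefore independent evidence. The median log2 ratio of the 7 was 0.50, beside 0.01 over all genes. Not all of the 7 were higher with BMP-2. Col9a1 had a log2 ratio of -0.33 (robust SD 0.44), Matn3 of 0.08 (robust SD 0.44) and Col27a1 of 0.17 (robust SD 0.29), each within the robust SD. Col2a1, the chain of type II collagen, had 28.8 with siENG and BMP-2, 41.1 with siCont and BMP-2 and 11.5 with vehicle. The siCont BMP-2 signal was at least 3.14-fold higher than vehicle, which lay in the control range. Fibromodulin (Fmod), a proteoglycan that the study chose on these arrays, had 793 with siENG and BMP-2, 810 with siCont and BMP-2 and 341 with vehicle. It was level between the arrays given BMP-2. Ccn2, a matricellular protein, had a log2 ratio of 0.63 (robust SD 0.11) and Prelp, another proteoglycan, of 0.50 (robust SD 0.29). For siENG over siCont with BMP-2, none of the 7 reached a ratio of 2 or of 0.5, where 4.04% and 1.66% of all genes kept did. Their median relative log2 ratio was -0.24. The 7 chondrocyte markers were above the control range in 2 cases with siENG and BMP-2, 3 with siCont and BMP-2 and 1 with vehicle, with Col10a1, Matn1, Hapln1 and Cnmd within it on all arrays.

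Transcription factors that act with Sox proteins in the skeleton were read more widely, with 11 of 17 matched genes kept. None had a ratio of 2 or more or of 0.5 or less with BMP-2, where 1.8% and 1.57% of all genes kept did. Their median log2 ratio was 0.19, beside 0.01 over all genes. Msx2, a homeobox factor of the ligament and skull, had 143 with siENG and BMP-2, 192 with siCont and BMP-2 and 101 with vehicle, and Runx1 had 418, 549 and 305 in the same order. Both were highest with siCont and BMP-2, with log2 ratios over vehicle of 0.93 and 0.85. Foxc2, a forkhead factor of the mesoderm, had a log2 ratio of 0.61 over vehicle. Sp7 (osterix), which osteoblasts need, had 26.3 with siENG and BMP-2, 56.5 with siCont and BMP-2 and 38.4 with vehicle. For siENG over siCont, it was the only 1 of the 11 genes kept with a ratio of 0.5 or less. Of all genes kept, 1.66% had one as deposited and 2.7% by relative ratios. The log2 ratio of Sp7 there was -1.10 (relative -1.31, robust SD 0.49).

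**Figure D3:**
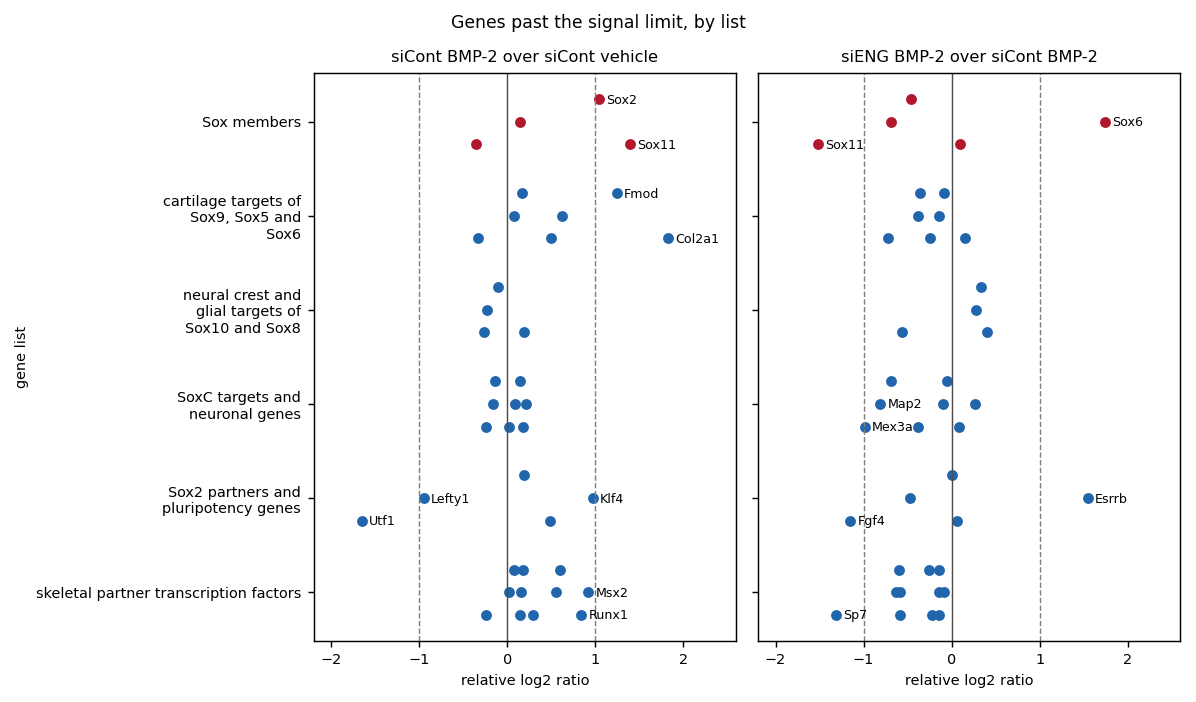
Log2 ratios, less the median over probe sets above 23, of the Sox members (red) and of the genes in 5 related lists (blue), with 1 point per gene past the limit in that comparison. The left panel shows siCont BMP-2 over siCont vehicle and the right panel siENG BMP-2 over siCont BMP-2, dashed lines mark ratios of 2 and 0.5, points are spread vertically within a list for sight only, and genes beyond 0.75 are named. Sox2, Sox11, Col2a1 and Fmod lie right of the dashed line in the left panel, and Sox11, Fgf4 and Sp7 lie left of it in the right panel.

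Genes that act with Sox2 in pluripotent cells were mostly dim. Of 16 matched, 5 were kept for siCont BMP-2 over vehicle, 0 had a ratio of 2 or more and Utf1 had 0.5 or less, where 1.8% and 1.57% of all genes kept did. Utf1, a chromatin factor of embryonic stem cells, had signals of 10.7 with siENG and BMP-2, 9.1 with siCont and BMP-2 and 28.5 with vehicle. The BMP-2 signals of Utf1 lay in the control range, and Utf1 passed the limit only through the vehicle array. Klf4, a zinc-finger factor used with Sox2 in reprogramming, had 792 with siENG and BMP-2, 953 with siCont and BMP-2 and 484 with vehicle, the same order of arrays as Sox2. Its log2 ratio over vehicle was 0.98 (robust SD 0.15). For siENG over siCont with BMP-2, 5 were kept. Esrrb alone was at 2 or more, with 38.6 and 11.4, at least 2.95-fold higher with siENG as deposited. It passed the limit only through the siENG array, and 11.4 lay in the control range. None was at 0.5 or less as deposited. Fgf4, with 19.4 with siENG and 37.3 with siCont, was so only by relative ratios. Of all genes kept, 4.04% and 1.66% were at these ratios (2.32% and 2.7% by relative ratios). Of the group C targets and neuronal genes, 8 of 12 matched were kept and none reached a ratio of 2 or of 0.5 in any of the 3 comparisons. Of all genes kept, 1.57% to 4.04% did so, by ratio and comparison. Tead2, a known target of group C factors, had 116 with siENG and BMP-2, 94.6 with siCont and BMP-2 and 111 with vehicle. Its log2 ratios of -0.23 for siCont BMP-2 over vehicle (robust SD 0.26) and 0.30 for siENG over siCont (relative 0.09, robust SD 0.40) lay within the robust SD. Mex3a, an RNA-binding protein, had the lowest log2 ratio of the 8 genes kept for siENG over siCont, at -0.78 (relative -0.99, robust SD 0.42). Map2 with -0.60 (relative -0.81, robust SD 0.33) and Marcks with -0.48 (relative -0.69, robust SD 0.22) were also lower. Klhl24 was higher, with 0.47 (relative 0.26, robust SD 0.30). The median of the 8 was -0.03 (relative -0.24), beside 0.24 over all genes as deposited. Of 13 matched neural crest and glial targets of Sox10 and Sox8, 4 were kept. None reached either ratio in the 3 comparisons, beside the same 1.57% to 4.04% of all genes kept. Their median log2 ratio was -0.16 for siCont BMP-2 over vehicle, beside 0.01 over all genes. For siENG over siCont it was 0.51 (relative 0.30), beside 0.24 over all genes as deposited. Erbb3, a neuregulin receptor of glia, had 75.6 with siENG and BMP-2, 49.4 with siCont and BMP-2 and 59.0 with vehicle. Its log2 ratio was -0.26 for siCont BMP-2 over vehicle (robust SD 0.34) and 0.61 for siENG over siCont (relative 0.40, robust SD 0.42).

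Genes nearest to a member were sought by the distance between their pairs of log2 ratios (BMP-2 over vehicle with siCont, siENG over siCont with BMP-2), over 3 arrays and among 7187 genes with a signal of at least 152 on some array. Nearest to Sox2 were Klf4, Pmepa1, which inhibits TGF-β signalling, and Id1, a target of BMP, at distances of 0.07, 0.10 and 0.10. Id1 had 2105 with siENG and BMP-2, 2501 with siCont and BMP-2 and 1296 with vehicle, the order of arrays seen for Sox2. Nearest to Sox11 were the acute-phase gene Orm2, Id4 and Dpysl3, at 0.16, 0.43 and 0.46. Orm2 had 97.8 with siENG and BMP-2, 218 with siCont and BMP-2 and 85.9 with vehicle. The 3 nearest to Sox12 were Deptor, Apcdd1 and Abcb10, but Sox12 itself was near the control range. Likeness over 3 arrays with a shared siCont BMP-2 array is a description, and says nothing of common control.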

How the data were processed

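Affymetrix arrays for the mouse genome were hybridised with total RNA of PDL-L2 cells, 1 for each of 3 conditions. The authors deposited linear signal intensity values, for which the processing notes of the submitters list GCOS 1.4. The sources used here do not state how signals were computed or scaled. Of 45101 probe sets, 64 controls were left out, and a signal of 0 was replaced by 0.1. Gene names came from the annotation of the platform, updated by gene identifier with RefSeq (GRCm38.p6), and 34945 probe sets named 1 gene. No scaling was applied before log2 ratios were taken. The robust SD (scaled median absolute deviation) was taken in 20 bins of mean log2 signal over all probe sets, without replicates, so it holds true differences too. Genes whose higher signal was at least 23 were kept, with no other filter, and the brightest probe set of a gene stood for it. A bound of "at least" sets the lower signal to 13.1, the highest Bacillus control. The number of arrays limits the precision.

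All members were named, of each list up to 4 genes with the largest absolute log2 ratio, and for 3 members the 3 nearest genes. Of the cartilage list, all 7 genes kept were named. Sox2ot and Sox6os were chosen after their values were seen. The members and lists were chosen with earlier results of these data known. Alternatives were 4 scalings, other limits and floors, and other probe set rules. The ratios were tested on simulated data. The tools were pandas 2.3.3, numpy 2.4.6, statsmodels 0.14.6 and matplotlib 3.10.9 under Python 3.11.15.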

Additional observations from a re-analysis of the deposited data

How the results depend on the processing

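No paired analysis was possible because each condition has 1 array, and for the same reason no array could be left out. Of 60 alternative counts of members, 45 stayed within 1.5 times, and of 127 alternative log2 ratios of members, 112 moved by less than the robust SD. Many of the 127 could not move. A limit does not change a ratio, a floor does not change that of brighter signals, and probe set rules do not change Sox2. The 112 are therefore no measure of robustness. For siCont BMP-2 over vehicle, 2 members (Sox2 and Sox11) reached a ratio of 2 under each of the 4 scalings. The count was 1 (Sox2) at a limit of 152, the 75th percentile, since the signals of Sox11 lay below it. It was also 1 with the second brightest probe set, where Sox2 kept its only probe set and could not change. No member had 0.5 or less, but 2 (Sox6 and Sox8) did without a signal limit. For siENG over siCont with BMP-2, the count at 2 or more was 1 (Sox6). It was 2 without a limit and 0 at the limit of 152, with a floor at the median, with the mean over probe sets and with the second brightest probe set. The count at 0.5 or less was 1 (Sox11), and 0 at the limit of 152, with the mean and with the second brightest probe set, for which the log2 ratio of Sox11 was -0.47 and -0.57. For siENG with BMP-2 over vehicle, the count at 0.5 or less was 1 (Sox12), and 0 at the limit of 152, the floor at the median, the mean and the second brightest probe set. With the mean, the log2 ratio of Sox4 for siENG over siCont was 0.17 in place of -0.48, since that mean takes in its 2 probe sets within the control range. The floor at 13.1 and the second brightest probe set were chosen after seeing the data. Over all genes, 438 were at 2 or more and 180 at 0.5 or less for siENG over siCont as deposited (70.9% higher), against 229 to 341 and 229 to 314 under the 4 scalings (42.2% to 59.8% higher). For siENG with BMP-2 over vehicle, 433 and 188 (69.7%) stood against 220 to 361 and 219 to 350 (38.6% to 62.2%). The signs of Sox2, Sox4, Sox11, Sox12, Sox6 and Sox10 held under the 4 scalings, except that of Sox11 for siENG with BMP-2 over vehicle, which ran from -0.14 to 0.09. Dim signals limit what can be said of all members but Sox2, Sox4 and the brightest probe set of Sox11.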

Other observations

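Sox2 lies within the long non-coding transcript Sox2ot. Sox2ot, chosen after its values were seen, had signals of 23.6 with siENG and BMP-2, 31.1 with siCont and BMP-2 and 16.3 with siCont and vehicle. These signals stand in the same order of arrays as those of Sox2. The log2 ratio of siCont BMP-2 over vehicle was 0.93 (robust SD 0.51), and that of siENG over siCont with BMP-2 was -0.40 (relative -0.61, robust SD 0.56). Sox6os, the antisense transcript of Sox6, had 6.4 with siENG and BMP-2, 9.5 with siCont and BMP-2 and 12.9 with vehicle, within the control range on all arrays.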
